A study of Homo sapiens with 2 samples.

Results

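The sgRNAs described here target the ETS transcription factors other than FLI1, and were chosen by gene symbol from the table of all sgRNAs in a knockout screen for regulators of EWSR1::FLI1. The 27 genes are ERG, FEV, ETS1, ETS2, ETV1, ETV2, ETV3, ETV3L, ETV4, ETV5, ETV6, ETV7, ERF, ELK1, ELK3, ELK4, GABPA, ELF1, ELF2, ELF3, ELF4, ELF5, EHF, SPDEF, SPI1, SPIB and SPIC. They have 107 of the 74336 distinct sgRNAs listed, 4 for each gene except ELK1 with 3. Of these 107 sgRNAs, 22 (20.6%) were enriched in the sorted library, against 20.8% of all sgRNAs. The largest enrichments were for 1 sgRNA of ETV2 (odds ratio 21.6) and 1 of FEV (15.6), and no ETS gene had more than 2 enriched sgRNAs.

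The cells were A673, a human Ewing sarcoma line that carries the EWSR1::FLI1 fusion and, unlike most such lines, grows in culture without it. The reporter line was 1 clone in which the C-terminus of the endogenous fusion was joined to tdTomato, and all cells also expressed Cas9 and EGFP. Cells received the Brunello sgRNA library at a multiplicity of infection of 0.3, then stayed 12 days under puromycin and 3 days off it. The 2 sequenced pools were 1 unsorted and 1 sorted for low tdTomato with high EGFP (about 7% of cells) and then expanded. Each condition has 1 library, so no difference below has a replicate check, and every test compares these libraries rather than the conditions.

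ETS factors share a DNA-binding domain that recognises a core GGAA motif, and they differ in the partners, signals and tissues that use them. In Ewing sarcoma the ETS domain of FLI1 is joined to the N-terminal part of EWSR1, and the fusion turns GGAA repeats into active enhancers. ERG, FEV, ETV1 and ETV4 replace FLI1 in rarer Ewing sarcoma fusions, and ETV6 can recognise some of the same sites.

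The unsorted library holds 10483144 reads and the sorted library 1455322, so the unsorted one is 7.20 times deeper. The ETS sgRNAs had 7 to 569 unsorted reads (median 111, against 103 over all sgRNAs). For each sgRNA a two-sided Fisher's exact test set its reads against all other reads of both libraries, with Benjamini-Hochberg adjustment over every listed sgRNA. The odds ratio is the sorted over the unsorted abundance. An sgRNA counted as enriched where it reached 2 or more with an adjusted p below 0.05, and as depleted where it was 0.5 or less at that adjusted p. Where a pair of read counts is given, the unsorted one comes first. Ranges given with an odds ratio are exact 95% intervals. These, and the bounds from a floor of 3 reads where a count was 0, cover counting error only, because PCR reads without molecular identifiers are not independent molecules. They also leave out the sampling of cells at the sort and during the expansion that followed, which adds error to odds ratios and to counts of 0 and was not measured.

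The sgRNA sequences shown first belong to the 4 ETS genes that can take the place of FLI1 in the fusion. Each is written 5′ to 3′, and capitals mark the 12 bases next to the PAM, where mismatches weaken cutting most. Numbers after a gene name run from the highest odds ratio to the lowest, and among sgRNAs with 0 sorted reads from the fewest unsorted reads to the most.
ERG-1: gacaccgtTGGGATGAACTA
ERG-2: agtctgtcCATAGTCGCTGG
ERG-3: tttctagcATGCATTAACCG
ERG-4: aacactgtACCTTTCGACTG
FEV-1: gccctggaAGTCGAAGCGGT
FEV-2: ctgagcccCGCGGTTCAGAA
FEV-3: gaacgccgGCTGCATCGCGT
FEV-4: cgagttcaAGCTCACGGACC
ETV1-1: tgtcatcaTAAAACTGCCTG
ETV1-2: taagtcaaTTACAGGAAACA
ETV1-3: agtgtatgAACACAACACCA
ETV1-4: ttggagatGCATGATGCAGT
ETV4-1: atcaatgtACCTCCACACAG
ETV4-2: tggcccgcCTGTTCATACAG
ETV4-3: ctccttacCTATGTTCCCCG
ETV4-4: tctttaccTTCAGAGTCGAG

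The remaining sequences belong to the 4 other genes with 2 enriched sgRNAs, so that the enriched and the lost sgRNAs of 1 gene can be seen together.
ETS2-1: gctgtccgCACCGTTCTCAG
ETS2-2: gctgttaaTCCAATGAGGAA
ETS2-3: cagacacaGAATTACCCCAA
ETS2-4: ttgctgcaCGGGGTTAACAA
ETV3-1: gagaatggGTGTCCAGAGGT
ETV3-2: gggtaacgGGGAAAAGTCCG
ETV3-3: atccctggCCTAGCAAACAG
ETV3-4: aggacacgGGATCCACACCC
ELK3-1: cctgcgatACTATTATGACA
ELK3-2: aaaccgacAAGCACGTCACC
ELK3-3: gaagatggATCCTCACGCGG
ELK3-4: cgcaacgaATACATCCACTC
SPIC-1: gaaaaactTGCCGAGCTTTG
SPIC-2: atttatatAGAACAGTGCTG
SPIC-3: gattatacAGGGATTCGTGA
SPIC-4: actcttctCCAGCAAAAGGG
A last sequence, ETV2-1, had the highest odds ratio of all ETS sgRNAs.
ETV2-1: ctggtaccGCTTCAAAGAGG

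FEV, the closest relative of ERG and FLI1 and a factor of serotonin neurons, had 2 enriched sgRNAs of 4. FEV-1 had 29 reads before and 63 after sorting (odds ratio 15.6, 9.93 to 25.2; adjusted p = 1.61e-34, Fisher's exact test). FEV-2 had 88 reads before and 50 after sorting (odds ratio 4.09, 2.83 to 5.86; adjusted p = 1.73e-12, Fisher's exact test). The other pair did not follow them. FEV-3 had 257 and 41 reads (odds ratio 1.15, 0.805 to 1.60). FEV-4, with 144 reads before sorting, had none after it and was at least 6.66-fold lower.

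ERG, the ETS gene next most often fused to EWSR1 after FLI1 and a factor of blood vessels and blood stem cells, had 1 enriched sgRNA. ERG-1 had 116 reads before and 66 after sorting (odds ratio 4.10, 2.98 to 5.59; adjusted p = 4.72e-16, Fisher's exact test). ERG-2 had 392 and 44 reads (odds ratio 0.809, 0.578 to 1.11). The other pair of ERG sgRNAs was absent from the sorted reads. ERG-3 started from 213 reads (at least 9.86-fold lower), and ERG-4 from 569, the most of any ETS sgRNA (at least 26.3-fold lower).

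ETV1, ETV4 and ETV5 form the PEA3 group, activators controlled by receptor tyrosine kinase and ERK signaling. ETV1-1 had 24 reads before and 21 after sorting (odds ratio 6.30, 3.34 to 11.8; adjusted p = 3.79e-08, Fisher's exact test). ETV1-2 had 122 and 80 reads (odds ratio 4.72, 3.52 to 6.31; adjusted p = 7.40e-22, Fisher's exact test). Both of these passed, while ETV1-3 (82 and 5 reads, odds ratio 0.439, 0.139 to 1.07) passed neither rule, and ETV1-4 (38 and 0 reads) was depleted, at least 1.76-fold lower. ETV4 had no enriched sgRNA. ETV4-1 had 288 reads before and 69 after sorting (odds ratio 1.73, 1.31 to 2.25), below the limit of 2 although its adjusted p was 2.29e-04 in Fisher's exact test. ETV4-2, with 16 unsorted reads, ETV4-3, with 116, and ETV4-4, with 169, all had 0 sorted reads. The last pair were depleted, ETV4-3 at least 5.37-fold and ETV4-4 at least 7.82-fold. ETV5 had 1 enriched sgRNA (102 and 45 reads, odds ratio 3.18), 1 near 1 (455 and 66 reads, odds ratio 1.04) and 2 with 0 sorted reads.

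Together the 4 alternative partners of EWSR1 had 5 enriched sgRNAs of 16 (31.2%), against 20.8% of the whole library. The 95% interval of the share for these partners includes 20.8%, and the difference was not tested. FEV-1 and ETV1-1 had 29 and 24 unsorted reads, so both leave the count where at least 30 are required. ETV4-2, which was not enriched, leaves it as well. FLI1 itself, whose gene carries the reporter, had 4 sgRNAs with 10, 15, 72 and 153 unsorted reads and 0 sorted reads for each. The 2 most abundant were depleted, and the summed FLI1 reads were at least 11.6-fold lower after sorting. For those with 10 and 15 unsorted reads a loss was not detectable at this depth. Of all genes, 14.6% had 0 sorted reads for every listed sgRNA. Which part of each gene these sgRNAs cut, and whether a fusion keeps that part, was not tested.

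ETS1 and ETS2 are the founding members of the family, activated by ERK phosphorylation. The genes differed in 2 sgRNAs. ETS2-1 had 52 reads before and 38 after sorting (odds ratio 5.26, 3.37 to 8.15; adjusted p = 4.39e-12, Fisher's exact test). ETS2-2 had 111 and 40 reads (odds ratio 2.60, 1.76 to 3.76; adjusted p = 4.90e-06, Fisher's exact test). ETS2-3 (234 unsorted reads, at least 10.8-fold lower) and ETS2-4 (298, at least 13.8-fold lower) had no sorted reads. All 4 sgRNAs of ETS1 had 0 sorted reads, from 15, 40, 52 and 112 unsorted reads. Summed, ETS1 was at least 10.1-fold lower. The difference between the genes was not tested.

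ETV2, the factor that starts the blood vessel and blood lineages in the embryo, gave the highest single value. ETV2-1 had 17 reads before and 51 after sorting (odds ratio 21.6, 12.3 to 39.9; adjusted p = 3.50e-31, Fisher's exact test). The other sgRNAs of ETV2 stood at or below their unsorted abundance. They had 185 and 23 reads (odds ratio 0.896, 0.554 to 1.39), 71 and 2 reads (0.203, 0.0241 to 0.760), and 242 and 0 reads.

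The TEL and ERF groups hold repressors of the family. ETV6, a repressor needed by blood stem cells that is itself a fusion partner in leukemia, had 1 enriched sgRNA (82 and 43 reads, odds ratio 3.78, 2.55 to 5.53). Its other sgRNAs had 355 and 61 reads (odds ratio 1.24), 268 and 0, and 297 and 0. ETV7, its close relative, had 0 sorted reads for unsorted counts of 19, 80, 123 and 446, and was at least 30.9-fold lower when summed. ERF, a repressor that ERK exports from the nucleus, was lost from 56, 70, 79 and 248 unsorted reads, a summed fall of at least 21.0-fold. All 4 sgRNAs of ERF were depleted, in a library where 51.7% of all sgRNAs were depleted. Of all genes, 14.6% had 0 sorted reads for every listed sgRNA. The share of all genes with every sgRNA depleted was not counted.

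ETV3, a repressor of the same group as ERF, had 2 enriched and 2 lost sgRNAs. ETV3-1 had 30 reads before and 34 after sorting (odds ratio 8.16, 4.85 to 13.8; adjusted p = 1.95e-14, Fisher's exact test). ETV3-2 had 18 and 17 reads (odds ratio 6.80, 3.29 to 14; adjusted p = 3.92e-07, Fisher's exact test). These were the scarcest sgRNAs of the gene before sorting. ETV3-3 (98 unsorted reads, at least 4.53-fold lower) and ETV3-4 (236, at least 10.9-fold lower) had no sorted reads. The related ETV3L had 15 and 14 sorted reads for a first pair of sgRNAs (odds ratios 0.965 and 0.720) and 0 for the others.

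ELK1, ELK3 and ELK4 are the ternary complex factors, which bind DNA with SRF and carry ERK signals to early response genes. Of their 11 sgRNAs, 3 (27.3%) had 0 sorted reads, against 57.6% of all sgRNAs. This was the lowest such share among the ETS groups of several genes, and ELF1, ELF2 and ELF4 followed with 33.3%. The 95% interval of the share for the ternary complex factors includes 57.6%, and the difference was not tested. ELK3-1 had 116 reads before and 41 after sorting (odds ratio 2.55, 1.74 to 3.66; adjusted p = 4.43e-06, Fisher's exact test). ELK3-2 had 215 and 60 reads (odds ratio 2.01, 1.48 to 2.69; adjusted p = 1.60e-05, Fisher's exact test), the lowest value among the enriched ETS sgRNAs. ELK3-3 followed closely, with 121 and 30 reads and an odds ratio of 1.79 (1.16 to 2.68), just under the limit. The intervals of these 3 sgRNAs overlap, so the limit of 2 separates sgRNAs whose values could not be told apart by counting. ELK3-4 fell from 120 reads to 0, at least 5.55-fold. ELK4 had 1 enriched sgRNA (157 and 61 reads, odds ratio 2.80), and ELK1 had none, with odds ratios of 1.58 and 1.16 and 56 and 0 reads for the last.

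GABPA, a widely expressed activator that pairs with GABPB1 or GABPB2 and drives housekeeping and mitochondrial genes, had 0 sorted reads throughout. Its sgRNAs had 11, 95, 137 and 221 unsorted reads, and their sum was at least 21.5-fold lower after sorting. Among the ELF group, factors of lymphoid and vascular cells, ELF1 had 1 enriched sgRNA with the most sorted reads of the family (186 and 103 reads, odds ratio 3.99, 3.10 to 5.10). ELF4 had 1 just past the limit (173 and 49 reads, odds ratio 2.04, 1.45 to 2.82) and 3 depleted. ELF2 had no sgRNA called either way, with odds ratios of 1.40, 0.844 and 0.608, and 7 and 0 reads for its last.

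Of the 12 sgRNAs of the epithelial factors ELF3, ELF5 and EHF, 10 (83.3%) had 0 sorted reads, against 57.6% of all sgRNAs. This was the highest such share among the ETS groups of several genes. Its 95% interval (51.6 to 97.9%) includes the library share, and the difference was not tested. Over all sgRNAs, the share with 0 sorted reads was 76.9% under 30 unsorted reads and 41.1% at 200 or more. The median unsorted count of these epithelial factors was lower than that of the ELK1, ELK3 and ELK4 sgRNAs. EHF had 0 for unsorted counts of 10, 28, 61 and 169, at least 12.4-fold lower when summed. ELF3 kept 1 sgRNA, which was enriched (54 and 27 reads, odds ratio 3.60), and ELF5 kept 1 that was not (245 and 52 reads, odds ratio 1.53). SPDEF, a factor of secretory epithelium, had 1 enriched sgRNA (55 and 46 reads, odds ratio 6.02, 3.98 to 9.08).

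The SPI group acts in myeloid and B cells and macrophages. SPI1 (PU.1) had 0 sorted reads for 18, 43, 63 and 310 unsorted reads, at least 20.1-fold lower when summed. SPIB had 1 enriched sgRNA (51 and 36 reads, odds ratio 5.08). SPIC, needed by iron-recycling macrophages, had 2. SPIC-1 had 38 and 18 reads (odds ratio 3.41, 1.83 to 6.13; adjusted p = 1.39e-04, Fisher's exact test). SPIC-2 had 276 and 82 reads (odds ratio 2.14, 1.65 to 2.75; adjusted p = 4.75e-08, Fisher's exact test). SPIC-3 stayed close to its unsorted abundance (102 and 19 reads, odds ratio 1.34), and SPIC-4 was lost from 371 unsorted reads, a fall of at least 17.2-fold.

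Over the family, 55 of 107 sgRNAs (51.4%) were depleted, against 51.7% in the library, and 60 (56.1%) had 0 sorted reads, against 57.6%. The remaining 30 passed neither rule. At least 1 sgRNA was enriched for 16 of the 27 genes, where 59.3% of all listed genes had one. At least 2 were enriched for 6 genes (22.2%), FEV, ETS2, ETV1, ETV3, ELK3 and SPIC, against 18.8% of all genes. No ETS gene had 3, as 2.84% of all genes did. All listed sgRNAs had 0 sorted reads for 6 genes (22.2%), ETS1, ETV7, ERF, GABPA, EHF and SPI1, against 14.6% of all genes. The shares of enriched and depleted sgRNAs were close to those of the library, and the differences in the gene counts were not tested. The names of the genes with 2 enriched sgRNAs depend on the settings. With at least 30 unsorted reads required, 3 remained (ETS2, ELK3 and SPIC), and with Bonferroni adjustment the others did (FEV, ETV1 and ETV3).

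Enriched and lost sgRNAs lay side by side within genes. Each of the 16 ETS genes with an enriched sgRNA also had at least 1 with 0 sorted reads and at least 1 that was depleted. In the library 93.1% of the 11324 genes with an enriched sgRNA had one with 0 sorted reads beside it, and 90.9% had a depleted one. The log2 ratio of sorted to unsorted share (pseudocount 0.5) spanned a median of 6.38 between the highest and lowest sgRNA of an ETS gene, and 6.48 over all genes. The gene median of this ratio was below 0 for 21 genes, and above 0 for FEV (1.13), ELK3 (0.94), SPIC (0.78), ETV1 (0.59), ELK4 (0.33) and ELK1 (0.23). By this median the ETS genes ranked from 1151 (FEV) to 17790 (GABPA) of the 19112 genes. The mean over the FEV sgRNAs was lower than their median, at 0.22.

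The enriched ETS sgRNAs had odds ratios from 2.01 to 21.6 with a median of 4.04, beside 4.12 for all enriched sgRNAs with unsorted reads. Of the 22, 8 reached 5 or more and 6 lay under 3. A further 12 ETS sgRNAs had odds ratios between 1.04 and 1.79 and were not called. The 5 highest odds ratios, of ETV2-1, FEV-1, ETV3-1, ETV3-2 and ETV1-1, came with 17 to 30 unsorted reads. Of the 13 ETS sgRNAs with under 30 unsorted reads, 4 were enriched (FEV-1, ETV1-1, ETV2-1 and ETV3-2), and of the 30 with at least 200, 2 were, which are SPIC-2 and ELK3-2. In the library these shares were 17.5% and 10.8%. The unsorted count is part of the odds ratio, so the 2 measures are not independent.

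Among the 47 ETS sgRNAs with sorted reads, those with under 100 unsorted reads had a median of 27 sorted reads (2 to 63, n = 17), those from 100 to under 200 had 35 (2 to 103, n = 16), and those with 200 or more had 58 (27 to 82, n = 14). Their median unsorted counts were 54, 122 and 308, a wider span than that of the sorted medians. Over the library the sorted medians of these classes were 36, 40.0 and 45. As a description across sgRNAs, which share both libraries and are not replicates, the rank correlation of unsorted and sorted reads was 0.49 over these 47 and 0.17 over all 31514 sgRNAs with sorted reads. The Pearson correlation of the log2 reads was closer between the sets, 0.29 and 0.20. Neither difference was tested.

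A count of 0 in the sorted library was called depleted only where the unsorted library was deep enough. The 51 lost ETS sgRNAs that were called had 38 to 569 unsorted reads. The other 9, among them ETS1-1, GABPA-1, SPI1-1 and ETV7-1, had 7 to 28, and for these a loss was not detectable at this depth.

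The sgRNA sequences differ enough to be counted apart. The authors' mapping accepted up to 3 mismatches and unique hits only, and every ETS sgRNA was at least 4 mismatches from any sgRNA of another gene (at most 7). In the library 2.74% of sgRNAs lay within 3. No pair of sgRNAs of 1 ETS gene shared a stretch of 10 or more bases. Across genes, 3 pairs matched over at least 14 bases with at most 3 mismatches when shifted against each other on either strand. The closest pair, shown here because its capitals overlap almost fully, is an sgRNA of ELF2 and one of ELF4, which match over 19 bases with 2 mismatches.
ELF2-3: gacatgaaCTATGAAACCAT
ELF4-2: acatgaacTATGAGACAATG
The ELF2 sgRNA had 83 unsorted and 7 sorted reads (odds ratio 0.608, 0.237 to 1.31) and the ELF4 sgRNA 95 and 2 (0.152, 0.0181 to 0.563). Their intervals overlap.

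GC content ran from 25.0 to 80.0% in the ETS sgRNAs, with a median of 50.0% as in the library. Of the 19 with under 45% GC, 7 were enriched and 8 had 0 sorted reads. Of the 18 with over 60%, 4 were enriched and 13 had 0. Over all sgRNAs, the shares enriched in these classes were 21.2% and 20.2%, and those with 0 sorted reads 57.6% and 59.4%. The differences between the family and the library were not tested. The 7 enriched sgRNAs of the low-GC class were ETS2-2, ETV1-1, ETV1-2, ETV6-1, ELK3-1, ELK4-1 and SPIC-2. The median unsorted count of this class was 111 against 56.0 in the high-GC class.

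Genes that work with ETS factors were read in the same way. The list of 14 genes includes the DNA-binding partners GABPB1, GABPB2, SRF, RUNX1, JUN and FOS and the coactivators CREBBP and EP300. It also includes CIC, a repressor of the PEA3 genes, and the ubiquitin ligase components SPOP, COP1 (listed as RFWD2) and DET1, which act on ETS proteins. Of their 56 sgRNAs, 14 (25.0%) were enriched, against 20.8% of all sgRNAs, and 27 (48.2%) had 0 sorted reads, against 57.6%. These differences were not tested. At least 2 were enriched for 3 of the 14 genes (21.4%), JUN and CIC among them, beside the 18.8% of all genes.

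CIC, whose loss raises ETV1, ETV4 and ETV5, had 73 unsorted and 98 sorted reads for its top sgRNA, an odds ratio of 9.67 (7.07 to 13.3). Its next had 135 and 70 reads (odds ratio 3.74, 2.76 to 5.02), and the other pair had 0 sorted reads from 165 and 204. JUN, an AP-1 subunit that binds beside ETS factors, had 36 sorted reads for an sgRNA with none before sorting, at least 86.4-fold higher against the floor. A second JUN sgRNA had 75 and 57 reads (odds ratio 5.47, 3.81 to 7.83). The other JUN sgRNAs were not called, with 56 and 13 reads (odds ratio 1.67, 0.839 to 3.10) and 2 and 0 reads. Of the direct partners of GABPA and the ELK proteins, GABPB1 and GABPB2 had 1 enriched sgRNA each, and all 4 of SRF had 0 sorted reads from 12 to 29 unsorted reads. No SRF sgRNA was called depleted, and with so few unsorted reads a loss of a single sgRNA was not detectable. Summed, SRF had 84 unsorted and 0 sorted reads, at least 3.89-fold lower.

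The forkhead genes, another family of transcription factors, were counted for comparison. The 50 forkhead genes have 192 sgRNAs, of which 36 (18.8%) were enriched and 55.2% had 0 sorted reads, against 20.8% and 57.6% in the library. For the ETS sgRNAs the enriched share was 20.6%. At least 2 sgRNAs were enriched for 6 of the 50 forkhead genes (12.0%), against 22.2% of the ETS genes and 18.8% of all genes. At least 3 were enriched for 3 forkhead genes and 0 ETS genes, against 2.84% of all genes. The difference between the families was not tested.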

How the data were processed

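The screen was measured as reads of sgRNA cassettes amplified from genomic DNA (20 and then 15 PCR cycles) of the 2 cell pools and sequenced on an Illumina MiSeq. The authors extracted the 20 bases after a fixed vector sequence, aligned them to the Brunello sgRNA list with Bowtie (1.2.2), allowing 3 mismatches and unique hits, and deposited unnormalized whole-number counts per sgRNA with each library's total. The table's own p-values and odds ratios were not used. No genome build is involved, and no coordinates are given.

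Each sgRNA was assigned by its listed gene symbol, and the transcript accessions of all 27 ETS genes matched the same symbols in RefSeq. The 3 repeated entries were dropped, after which the counts sum to the totals. Odds ratios and two-sided Fisher's exact tests were computed on the whole table as in the study's methods. Intervals are exact (Clopper-Pearson) binomial ones for the sorted part of an sgRNA's reads, converted to the odds ratio scale. sgRNAs are given one by one for the alternative EWSR1 partners, for genes with at least 2 enriched sgRNAs and for genes with 0 sorted reads throughout, and otherwise by the top sgRNA where enriched, with further values added after they were seen. The sgRNAs of 1 listed gene are not reported here one by one. The members and lists were chosen with earlier results of these data known. Alternatives were an odds ratio limit of 1, at least 30 unsorted reads, scaling on olfactory receptor sgRNAs (exact binomial test), thinning of the unsorted counts, Bonferroni adjustment, a negative binomial test in edgeR (4.0.16) and a pseudocount of 5. Scripts, tested on simulated data, used Python 3.11.15, numpy 2.4.6, pandas 2.3.3, scipy 1.17.1 and R 4.3.3.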

Additional observations from a re-analysis of the deposited data

How the results depend on the processing

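The 22 enriched and 55 depleted ETS sgRNAs stayed within 1.5 times of these counts, from 17 to 27 enriched, except as follows. With Bonferroni adjustment 26 ETS sgRNAs were depleted (24.3%, against 23.5% of all sgRNAs), since fewer pass a stricter adjustment, and 3 ETS genes (FEV, ETV1 and ETV3) had at least 2 enriched sgRNAs, as 13.2% of all genes did. With at least 30 unsorted reads, which removes FEV-1, ETV1-1, ETV2-1 and ETV3-2 from the count, 3 genes had at least 2 (ETS2, ELK3 and SPIC; 15.4% of all genes). ELK3 lost 1 of its enriched sgRNAs when the unsorted library was thinned to the sorted depth. With an odds ratio above 1, 8 of the 14 genes that work with ETS factors had at least 2 enriched sgRNAs in place of 3. At that limit 26.0% of all genes had at least 2, in place of 18.8%, and the difference from the library was not tested. ETV4 had 1 enriched sgRNA at that limit. In the negative binomial test, 0 ETS sgRNAs were enriched and 0 depleted, and 0 genes of either list had at least 2. Its dispersion of 2.74 was estimated over 1457 olfactory receptor sgRNAs, with the unsorted and sorted libraries treated as replicates. By the Fisher rule 17.4% of those sgRNAs were enriched, and 57.8% had 0 sorted reads. At that dispersion the smallest unadjusted p of the negative binomial test was 0.146 for an ETS sgRNA. Of all sgRNAs, 0 had an unadjusted p under 0.05. The test therefore made no call for any sgRNA and cannot show which calls are stable.

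The median log2 ratio over ETS sgRNAs was -2.64, and -0.29 with a pseudocount of 5, because it falls on sgRNAs with 0 sorted reads, whose ratio has no lower bound. Of the 27 genes, 6 had a median above 0, 9 with a pseudocount of 5, and 10 by summed counts, the 6 among them each time. By the mean over sgRNAs 2 genes were above 0. No replicate could be left out. No paired analysis was possible because the labels give 1 library for each group.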
